A study of Macaca fascicularis with 9 samples.

Results

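The axon guidance ligands and receptors were 63 genes among the 29128 features counted in single nuclei of macaque thalamus. They were taken by symbol alone: every feature that begins with SEMA, PLXN, EPHA, EPHB, EFNA, EFNB, ROBO, SLIT, NTN or UNC5 in the form of a family member, together with DCC, NRP1 and NRP2. This gave 18 semaphorins, 9 plexins and neuropilins, 7 ephrins, 13 EPH receptors, 5 SLITs and ROBOs, and a group of 11 netrins, DCC and UNC5 genes. UNC50, an inner nuclear membrane protein, and UNC5CL, a UNC5-like protein, match the last group by their letters and are not netrin receptors. The samples were 9 female cynomolgus monkeys (Macaca fascicularis), 3 in each group, and the labels used here give no ages. Saline animals received saline by vein in 4 doses given every other week. ASO animals received 1 dose of 4 mg of an ASO, an antisense oligonucleotide, by the intrathecal route. Its target is MALAT1, a noncoding RNA that stays in the nucleus. OTV stands for oligonucleotide transport vehicle, a protein carrier that binds the transferrin receptor of blood vessel cells and carries an attached ASO into the brain. OTV animals received OTV:MALAT1 by vein in 4 doses at 30 mpk, also every other week. Animals are named by group and replicate, Saline 1 to OTV 3, and values of a group are given in the order of its replicates. Frozen tissue came from 2 weeks after the last dose in all groups, and DAPI-stained nuclei were sorted and sequenced in 10x Genomics droplet libraries. The ASO and saline groups therefore differ in route and number of doses as well as in the agent.

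Guidance molecules steer growing axons and migrating cells, and in the adult brain many remain in use at synapses and in glia. Semaphorins signal through plexins, with neuropilins as co-receptors for the secreted class. Ephrins are membrane-bound ligands of the EPH receptor tyrosine kinases, and signalling can run in both directions between the touching cells. SLIT proteins bind ROBO receptors and mostly repel. Netrin attracts through DCC and repels through UNC5 receptors, and in the oligodendrocyte lineage netrin and DCC are known for cell migration and for the upkeep of myelin contacts with the axon.

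The libraries held 2956 to 11992 nuclei and 19981249 to 98850459 UMIs (unique molecule counts) per animal, with a median of 2579 to 7791 UMIs per nucleus. OTV 3 was the shallowest by median. MALAT1, the targeted RNA, took 5.95 ± 0.51% of UMIs in the saline animals, 4.75 ± 0.755% in the ASO animals and 3.39 ± 0.361% in the OTV animals (SD, n = 3). The authors' cell types were used: oligodendrocytes (61578 nuclei), oligodendrocyte precursor cells (OPCs, 6233), myeloid cells (5727), astrocytes (4411) and neurons (1714), with 17 clusters below them. Levels are given as CPM, the counts of a gene in the summed nuclei of a type, scaled to a total of 1000000 UMIs. Each type carried its own markers, summed at 3774 to 7493 CPM over the animals in oligodendrocytes, 1779.6 to 2557 CPM in OPCs, 2199 to 3764 CPM in myeloid cells, 6366 to 18085 CPM in astrocytes and 2037 to 4294 CPM in neurons. Neurons were few, 17 to 527 per animal. Their markers did not match the thalamus label evenly: 5 markers of striatal projection neurons summed to 2329, 383 and 7217 CPM in the saline animals, 285, 1353 and 4948 CPM in the ASO animals and 418, 335 and 531 CPM in the OTV animals, while 5 markers of thalamic neurons summed to 111, 479 and 103 CPM in the saline animals, 717, 56.1 and 126 CPM in the ASO animals and 611, 696 and 338 CPM in the OTV animals. Saline 1, Saline 3 and ASO 3 also stood apart in astrocytes, where 3 telencephalic markers (LHX2, EMX2, MEIS2) exceeded 6 diencephalic ones by 3.05, 6.55 and 6.23 in mean log2 CPM, against -1.16 to 0.23 in the other 6 animals. No OTV animal was among the 3. Libraries shared 760 barcodes, at most 48 between any 2 libraries.

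Neurons carried the highest mean level of 28 of the 63 genes, OPCs of 11, myeloid cells of 10, oligodendrocytes of 9 and astrocytes of 5. The highest type was the highest in 9 of 9 animals for 18 genes. Most genes kept the same highest type in the saline animals alone (55 genes) and when nuclei rather than UMIs were weighted equally (61 genes). The families fell differently on the cell types: neurons were highest for 8 of 13 EPH receptors, 5 of 7 ephrins and 5 of 5 SLITs and ROBOs, whereas 5 of the 11 netrin, DCC and UNC5 genes were highest in oligodendrocytes and 3 in OPCs. UNC50, which is not a netrin receptor, is among the 5 highest in oligodendrocytes. Plexins and neuropilins were spread, with 3 of 9 highest in myeloid cells and 3 in astrocytes. At the low end, 8 genes averaged under 5 CPM in every type (EFNA3, EFNB1, EFNB3, EPHA1, EPHA2, EPHA8, SEMA3G and UNC5CL). All differences between cell types are descriptions, because the types were made from the same counts, and RNA free in the droplets was not removed from them.

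**Figure D1:**
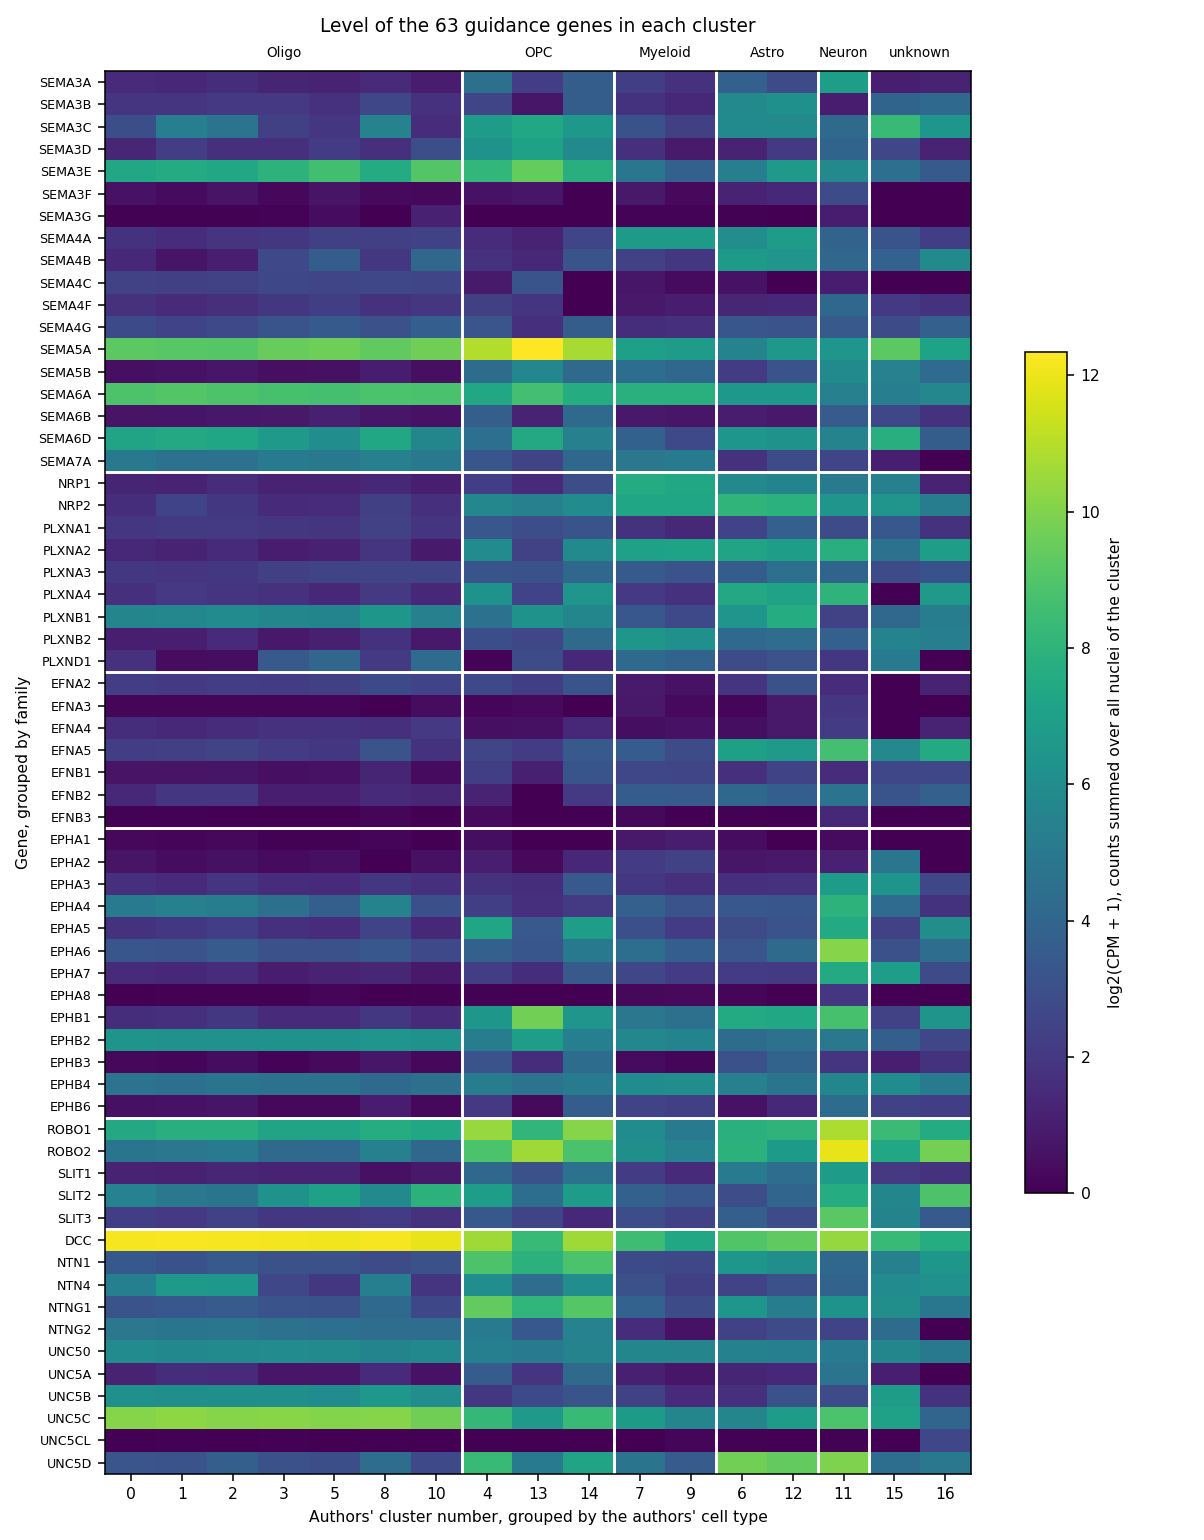
Level of each of the 63 genes (rows, by family) in each of the authors' 17 clusters (columns, by cell type), as log2(CPM + 1) of the counts summed over all nuclei of the cluster. DCC and UNC5C are bright across the oligodendrocyte clusters, SEMA5A is brightest in cluster 13 of the OPCs, and most EPHA genes and SLIT3 are brightest in the neurons of cluster 11.

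Of the 11 netrin, DCC and UNC5 genes, 8 were highest in oligodendrocytes or their precursors. UNC50, which belongs to the group by its letters only, is among the 8. NTN1, the secreted ligand netrin 1, was highest in OPCs at 476 ± 98.3 CPM (SD, n = 9), 6.67 times its level in astrocytes, and at 7.98 CPM in oligodendrocytes. NTNG1, a membrane-anchored netrin that binds NGL proteins rather than DCC, was also highest in OPCs (632 ± 109.7 CPM) and next in neurons (182 ± 161 CPM). Both OPC values held in 9 of 9 animals, whose levels ran from 393 to 719 CPM for NTN1 and from 481 to 822 CPM for NTNG1. NTN4, a netrin of basement membranes, had similar means in oligodendrocytes (65.5 ± 43.2 CPM) and OPCs (63.3 ± 18.5 CPM) and was unequal among oligodendrocyte clusters, from 2.73 CPM in cluster 10 to 99.3 CPM in cluster 1.

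The receptor DCC was read mostly in oligodendrocytes, which held 93.6% of its UMIs. Its level there was 4537 ± 701 CPM (SD, n = 9), with the animals at 4273, 3716 and 5078 CPM in the saline animals, 4116, 5575 and 4099 CPM in the ASO animals and 5342, 4914 and 3724 CPM in the OTV animals. The groups overlapped, and every animal exceeded its own OPCs, which averaged 1435 CPM. By cluster, DCC ran from 3912 CPM in cluster 10 to 4854 CPM in cluster 1 of the oligodendrocytes and was 317 CPM in cluster 13 of the OPCs. UNC5C, a repellent netrin receptor, was highest in oligodendrocytes too (1075 ± 246 CPM) and next in neurons (728 ± 457 CPM), although oligodendrocytes led in 7 of 9 animals only. UNC5B, best known from blood vessels, averaged 74.7 ± 13.7 CPM in oligodendrocytes, 5.32 times the next type, and was 111 CPM in cluster 15. UNC5D differed from these: it was high in neurons (1554 ± 842 CPM) and astrocytes (882 ± 223 CPM) and at 14.2 CPM in oligodendrocytes. UNC50 was even across the types, from 38.4 CPM in neurons to 51.4 CPM in oligodendrocytes.

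Semaphorins divided the glia. SEMA5A, a transmembrane semaphorin, was highest in OPCs at 2166 ± 276 CPM (SD, n = 9) and in 9 of 9 animals, against 639 CPM in oligodendrocytes. Within OPCs it was unequal: 1912 CPM in cluster 4, which holds most OPCs, and 5208 CPM in cluster 13, a cluster of 366 nuclei. The secreted SEMA3D was 7.9 times higher in OPCs than in neurons on average, and secreted SEMA3E was shared by OPCs (334 ± 138 CPM) and oligodendrocytes (259 ± 121 CPM). SEMA6A and SEMA6D, transmembrane ligands of class A plexins, were highest in oligodendrocytes at 445 ± 74.8 CPM and 137 ± 28.2 CPM. Oligodendrocytes led for SEMA6D in 9 of 9 animals and for SEMA6A in 7 of 9 only. In the saline animals alone the mean of SEMA6A was highest in myeloid cells. Astrocytes led for SEMA4B (107 ± 16.4 CPM) and for the secreted SEMA3B (64.0 ± 48.8 CPM), 5.88 and 11.5 times the next type, each in 9 of 9 animals.

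Among the semaphorin receptors, PLXNB2 was highest in myeloid cells and PLXNB1 in astrocytes. PLXNB2 averaged 90.7 ± 49.7 CPM (SD, n = 9) in myeloid cells and 20.1 CPM in astrocytes, and PLXNB1 averaged 102 ± 69.9 CPM in astrocytes and 63.5 CPM in oligodendrocytes, both in 9 of 9 animals. PLXNB1 is shared with oligodendrocytes, which held 80.9% of its UMIs and reached 90.4 CPM in cluster 8. Among the astrocytes it was 84.7 CPM in cluster 6 and 200.01 CPM in cluster 12, the highest of the 17 clusters. Clusters 8 and 12 were shallow, at a median of 3081.5 and 1935 UMIs per nucleus, against 8312 in cluster 6. The OTV animals made up the upper end of the spreads of PLXNB2 and PLXNB1, as described below. The neuropilins, co-receptors of secreted semaphorins, were at 179.8 ± 167 CPM in myeloid cells for NRP1 and 291 ± 101 CPM in astrocytes for NRP2. The remaining plexins and both neuropilins had no type that led in 9 of 9 animals.

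Of the 7 ephrins, EFNA5 (403 ± 98.2 CPM) and EFNB2 (26.1 ± 20.6 CPM), both highest in neurons, were the only members to average above 20 CPM in any type. Neurons had the highest mean of 8 of the 13 EPH receptors, and some of these leads were narrow. EPHA5 averaged 190 CPM in neurons and 136 CPM in OPCs, which held 54.2% of its UMIs. Neurons were highest for EPHB1 in 6 and for EPHB6 in 4 of 9 animals. Of the EPHA4 UMIs, 65.5% were in oligodendrocytes, the type with the most nuclei. EPHA6 averaged 839 ± 451 CPM (SD, n = 9) in neurons, 37.0 times the next type, EPHA3 159 ± 159.8 CPM (57.8 times), EPHA7 119.6 ± 107 CPM (20.0 times) and EPHA4 189 ± 88.9 CPM (5.74 times), each highest in neurons in 9 of 9 animals. Of the 5 EPH receptors highest elsewhere, EPHB2 was highest in oligodendrocytes (81.6 ± 22.3 CPM) and EPHB4, the receptor of vascular ephrin signalling, in myeloid cells (59.5 ± 32.7 CPM), while EPHA1, EPHA2 and EPHB3 averaged at most 8.24 CPM. EPHB1 was read in neurons (487 ± 314 CPM), in astrocytes (254 ± 327 CPM) and, at 848 CPM, in cluster 13 of the OPCs.

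SLIT and ROBO genes were highest in neurons, with OPCs second for 4 of the 5. ROBO2 averaged 3789.5 ± 1436 CPM (SD, n = 9) in neurons and 572 ± 165 CPM in OPCs, and ROBO1 2198 ± 825 CPM and 1233 ± 273 CPM. SLIT3, a ligand of both, averaged 306 ± 309 CPM in neurons and 9.52 CPM in OPCs. SLIT2 was spread more widely, at 132 ± 104 CPM in neurons and 101 ± 34.2 CPM in OPCs, with 240.4 CPM in cluster 10 of the oligodendrocytes and its highest value, 474 CPM, in cluster 16.

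**Figure D2:**
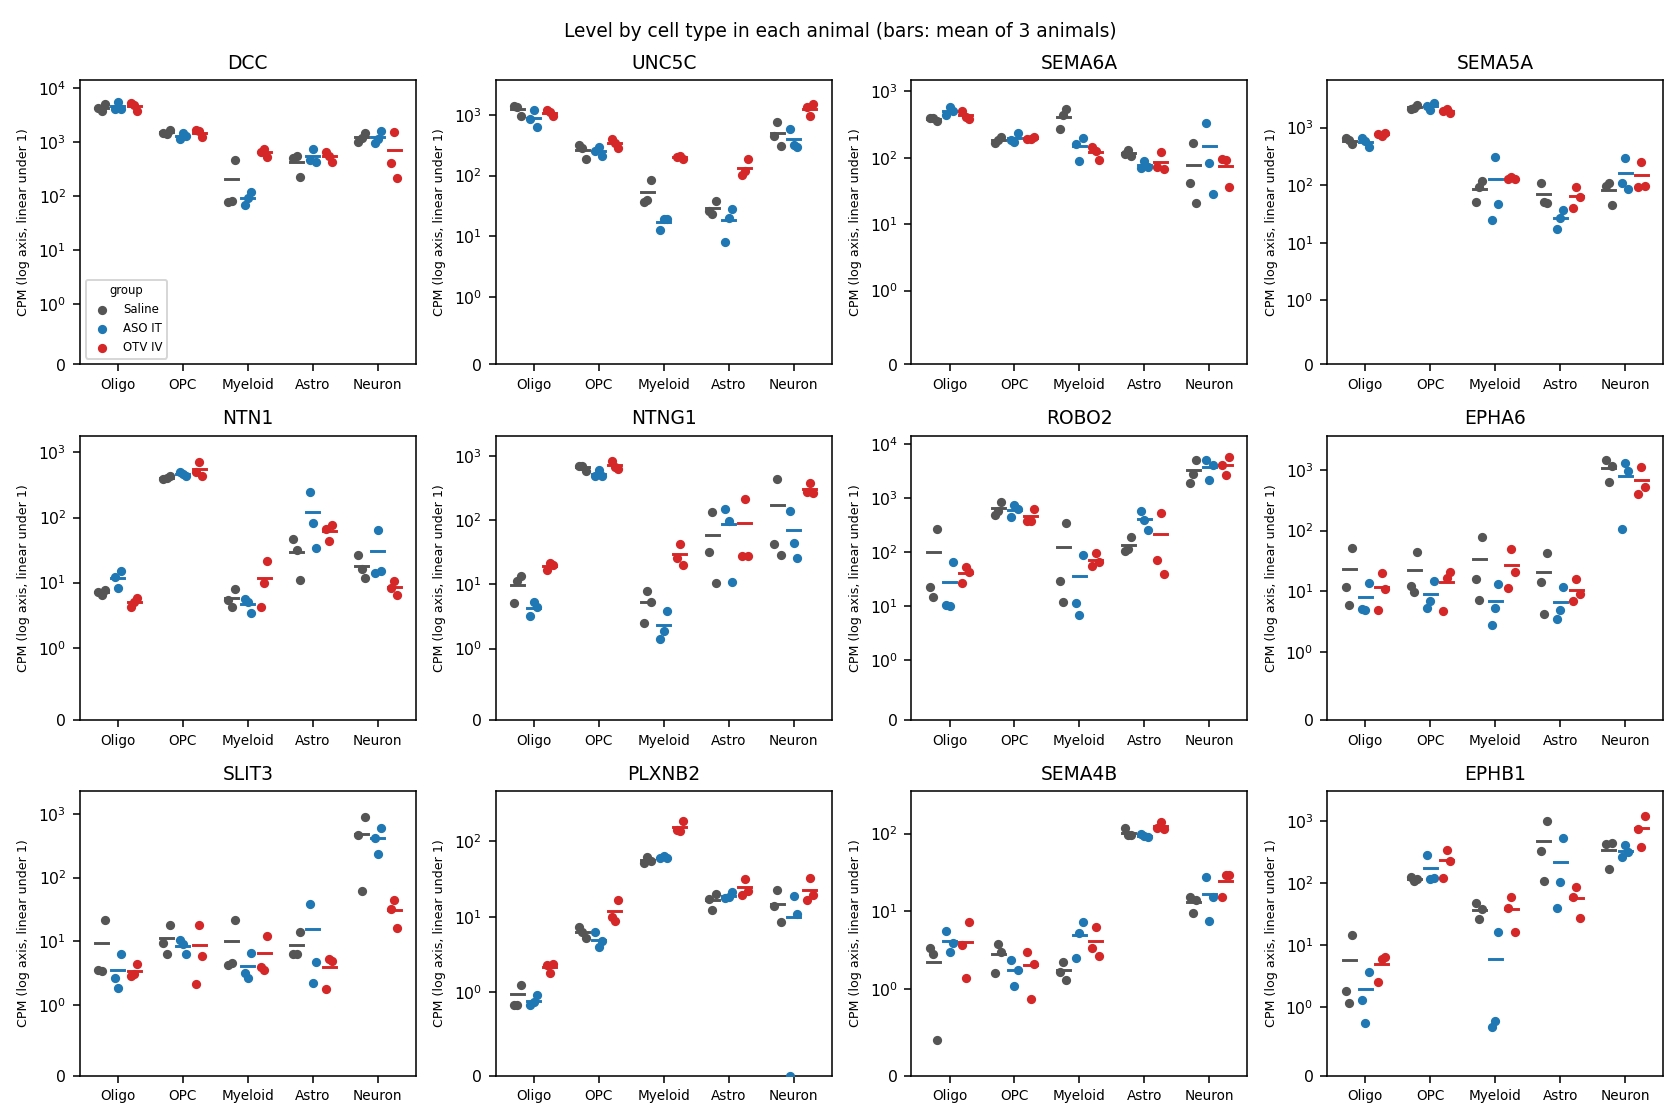
CPM of 12 guidance genes in 5 cell types, 1 point per animal (saline grey, ASO blue, OTV red) with the mean of each 3 as a bar, on a log axis that is linear under 1 CPM. On average over the animals DCC, UNC5C and SEMA6A are highest in oligodendrocytes, SEMA5A, NTN1 and NTNG1 in OPCs, ROBO2, EPHA6 and SLIT3 in neurons, PLXNB2 in myeloid cells and SEMA4B in astrocytes. EPHB1 spreads over the animals in astrocytes, from 27.2 to 1008 CPM.

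Clusters of few nuclei held several of the highest values. Cluster 13 (366 nuclei named OPCs by the authors) carried OPC markers at 1669 CPM together with oligodendrocyte markers at 2016 CPM. It had the highest SEMA5A, SEMA3E (678 CPM), SEMA3D (132 CPM) and EPHB1 of all 17 clusters. SEMA5A was 4101 to 6921 CPM there over 9 animals, and the animals' values in cluster 4 ran from 1347 to 2526 CPM, so the 2 clusters did not overlap. Cluster 15 (213 nuclei, left unnamed by the authors) carried endothelial and mural markers at 1922 CPM and the highest SEMA3C (327 CPM), UNC5B, SEMA6D (222 CPM), PLXND1 (33.4 CPM) and EPHA2 (28.2 CPM). PLXND1 is a receptor known from endothelium. Cluster 16, also unnamed, held 118 nuclei with astrocyte markers at 2225 CPM and the highest SLIT2.

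Several levels varied between animals beyond the groups. EPHB1 in astrocytes was 327, 108 and 1008 CPM in the saline animals, 39.1, 102 and 526 CPM in the ASO animals and 60.1, 86.1 and 27.2 CPM in the OTV animals. The highest 3 values were those of Saline 1, Saline 3 and ASO 3, the animals whose astrocytes held most telencephalic marker RNA, and the groups overlapped. SEMA3D in OPCs was 105, 146 and 3.02 CPM in the saline animals, 64.0, 89.3 and 9.41 CPM in the ASO animals and 111, 82.6 and 116 CPM in the OTV animals. Here Saline 3 and ASO 3 were far below the other 7 animals. In neurons SLIT3 was 465, 60.6 and 898 CPM in the saline animals, 410.5, 235 and 596 CPM in the ASO animals and 31.8, 43.8 and 16.2 CPM in the OTV animals, and its lowest saline value was that of Saline 2, which also had the lowest striatal marker sum of its group. Among the ASO animals the lowest SLIT3 was that of ASO 2, while ASO 1 had the lowest striatal marker sum. The part of the sampled region in these levels was not tested.

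The first comparison asked whether the intrathecal ASO changed guidance genes. No member passed the test in any cell type: 0 calls in 241 member tests (58 members in oligodendrocytes, 51 in OPCs, 42 in myeloid cells, 47 in astrocytes and 43 in neurons). Log2 fold changes are given with their standard error (SE). Summed counts per animal and type were compared with edgeR's quasi-likelihood test, adjusted with Benjamini-Hochberg over all features of the type and called at an adjusted p under 0.05. Of all features, 0.394% were called in oligodendrocytes, 0.262% in OPCs, 0.197% in myeloid cells, 0.0147% in astrocytes and 0.0% in neurons. At an unadjusted p under 0.05 there were 33 of the 241 member tests, against 8.77% of all tests in the 5 types. DESeq2's Wald test called 3 members higher and 7 lower, against 0.728% and 0.945% of all tests. The smallest adjusted p was that of ROBO1 in oligodendrocytes, the SLIT receptor, at 221, 278 and 320.1 CPM in the saline animals, 152, 96.6 and 149 CPM in the ASO animals and 195, 272 and 209 CPM in the OTV animals. The ASO animals lay below the saline animals without overlap, with a log2 fold change of -1.08 ± 0.20 SE at an adjusted p of 0.0645. Semaphorin SEMA7A in oligodendrocytes had a log2 fold change of 0.77 ± 0.16 SE at an adjusted p of 0.0817, SEMA4F in oligodendrocytes -1.84 ± 0.40 SE at an adjusted p of 0.0971, and UNC5C in myeloid cells -1.65 ± 0.32 SE at an adjusted p of 0.103. These 3 also did not overlap between the groups. How many of all features lacked overlap was not counted for this comparison. Between OTV and saline animals, 98.2% of the calls over all features had no overlap. Over the members tested in myeloid cells the median log2 fold change was -1.04, against 0.00 over all features there, and in the other types it was -0.22 to -0.10. In the same myeloid nuclei the 5 astrocyte markers summed to 1915, 1889 and 2543 CPM in the saline animals, 1003, 779 and 1207 CPM in the ASO animals and 1612, 1035 and 674 CPM in the OTV animals, without overlap between saline and ASO animals, and none was called. That astrocyte marker sum was mostly SLC1A3, at 1504 of 1578 CPM in myeloid cluster 7 and 1306 of 1350 CPM in myeloid cluster 9. The leading marker of astrocyte cluster 6 was SLC1A2, at 6218 of 9086 CPM. The 4 oligodendrocyte markers ran from 606 to 808 CPM in the saline and from 861 to 1418 CPM in the ASO animals, and none was called. Of the endothelial and mural markers, 1 of 4 tested was called higher in the ASO than in the saline animals. The part of these markers in the shift was not tested.

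The second comparison asked the same of the intravenous OTV:MALAT1 animals. Of the plexins, 4 were higher in several glial types, and EPHB4 and UNC50 were lower in all 4. The calls came to 28 higher and 15 lower among the 241 member tests. UNC50, which is not a netrin receptor, gave 4 of the lower calls. The filter on low counts left 58 of the 63 members tested in at least 1 type. The calls covered 15 genes that were higher and 9 that were lower, and 42 of the 43 calls had no overlap between the 3 OTV and the 3 saline animals (the exception was SEMA3C in myeloid cells). Of the calls over all features, 98.2% had no overlap either. Oligodendrocytes had 8 higher and 2 lower calls, against 7.52% and 11.7% of all features. OPCs had 8 and 3 (all features 10.2% and 11.9%), and myeloid cells 7 and 3 (4.76% and 7.26%). Astrocytes had 5 and 3 (6.27% and 9.12%), and neurons 0 and 4 (2.52% and 4.3%). As shares of the members tested, higher calls were 13.8% in oligodendrocytes, 15.7% in OPCs, 16.7% in myeloid cells and 10.6% in astrocytes, above the share of all features in each. Lower calls were 3.45%, 5.88%, 7.14% and 6.38%, below it in this test, although the myeloid share hardly differed from 7.26%. Neurons went the other way. There 0% of the members were called higher, against 2.52% of all features, and 9.3% lower, against 4.3%. DESeq2's Wald test called 11.9% of the members lower in neurons, against 6.6% of all features. Its lower calls were 4, 3, 5 and 5 in the 4 glial types in the order above. That is 6.9%, 5.88%, 11.9% and 10.6% of the members, against 13.4%, 12.3%, 7.07% and 10.3% of all features, so in myeloid cells and astrocytes the share of the members was not below that of all features. Whether these shares differ was not tested. The median log2 fold change of the members tested was 0.23, 0.17, 0.32, 0.29 and -0.33 in oligodendrocytes, OPCs, myeloid cells, astrocytes and neurons, against medians between -0.03 and -0.01 over all features. Single animals moved the counts by type, and the shares of all features without those animals are not given here. Higher calls numbered 4 in oligodendrocytes without Saline 2, and in OPCs 4 without Saline 1 or Saline 2 and 5 without OTV 2. In myeloid cells they numbered 4 without Saline 1 or Saline 2 and 12 without Saline 3, and in astrocytes 3 without Saline 1. Lower calls numbered 1 in myeloid cells without OTV 2 or OTV 3, and in astrocytes 1 without Saline 1 or OTV 1 and 0 without OTV 3. In neurons, higher calls numbered 5 without Saline 2, 3 without ASO 1, 2 without ASO 2 and 1 without ASO 3 or OTV 1. Lower calls in neurons numbered 2 without OTV 2 and 0 without Saline 1, Saline 3, ASO 2, OTV 1 or OTV 3. With no filter on low counts the neuron calls were 4 higher and 0 lower, and DESeq2's Wald test called 2 higher. In all types together, without Saline 1 there were 18 higher and 8 lower calls, without Saline 3 or OTV 1 there were 9 lower calls, without OTV 3 there were 5, and without the 3 animals with telencephalic markers there were 6. By family, 5 of 9 plexins and neuropilins, 6 of 17 semaphorins tested and 4 of 10 netrin, DCC and UNC5 genes tested were higher in at least 1 type, against 12.8% of all features tested. None of the 11 EPH receptors, 6 ephrins or 5 SLITs and ROBOs tested was higher. Lower in at least 1 type were 2 EPH receptors, 2 SLITs and ROBOs, 3 semaphorins, 1 netrin, DCC or UNC5 gene (UNC50) and 1 plexin or neuropilin (NRP1), against 18.1% of all features.

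**Figure D3:**
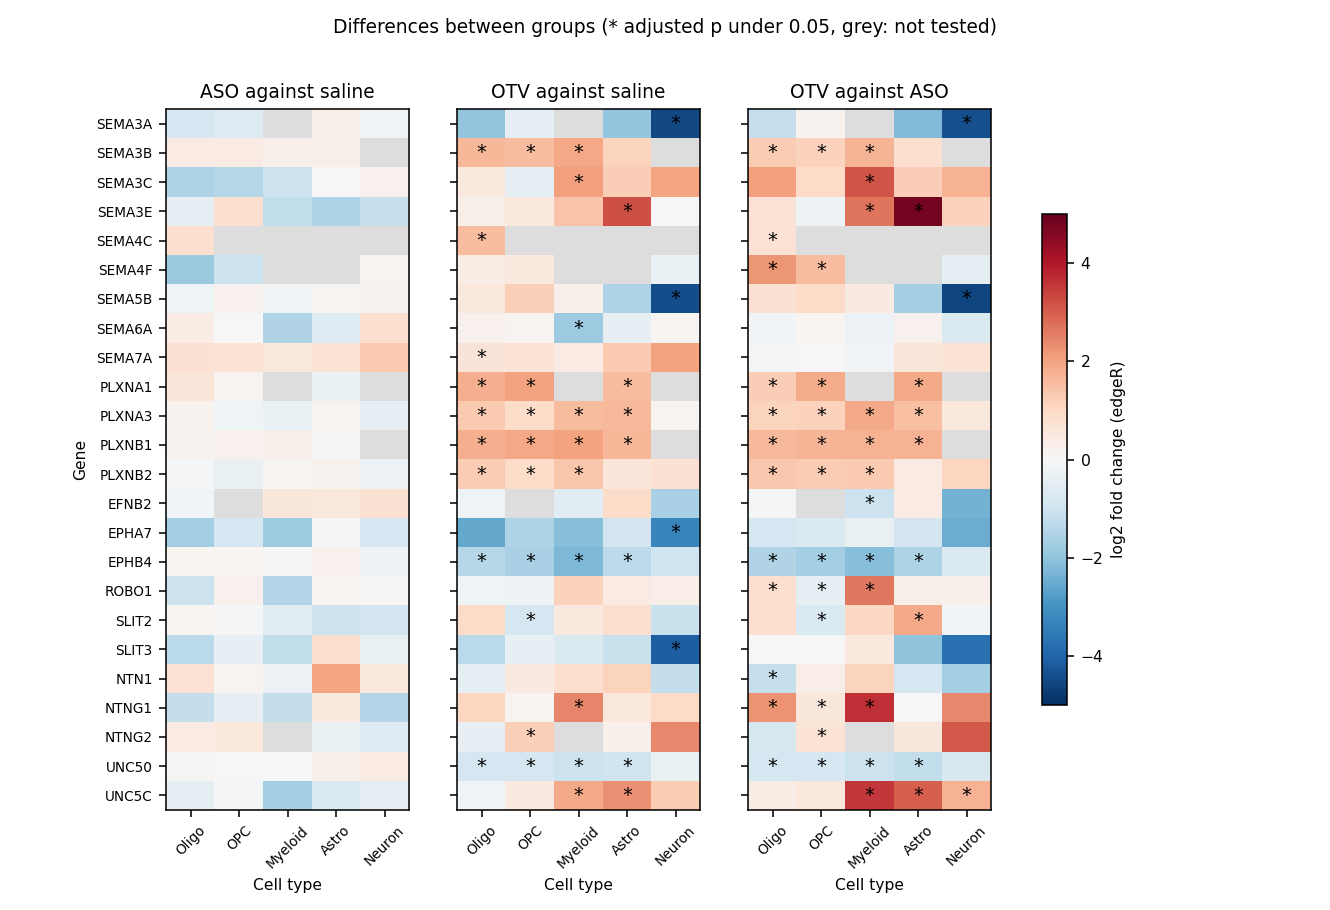
Log2 fold change (edgeR) of the named genes in 5 cell types for the 3 comparisons, with a star where the adjusted p was under 0.05 and grey where the gene was not tested. The left panel has no star, PLXNA1, PLXNA3 and PLXNB1 are red and EPHB4 and UNC50 blue in the glial columns of the other panels (PLXNA1 was not tested in myeloid cells), and SEMA3A and SEMA5B are dark blue in neurons.

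PLXNB1, a receptor of class 4 semaphorins, was higher in all 4 glial types. In astrocytes it was 62.8, 51.4 and 67.0 CPM in the saline animals, 60.0, 63.7 and 56.5 CPM in the ASO animals and 130.4, 179 and 249 CPM in the OTV animals. The 3 OTV animals lay above the 6 others, and the log2 fold change against saline was 1.67 ± 0.24 SE at an adjusted p of 0.00249. In oligodendrocytes it was 36.8, 30.0 and 34.8 CPM in the saline animals and 87.6, 112 and 151 CPM in the OTV animals without overlap (log2 fold change 1.83 ± 0.19 SE at an adjusted p of 0.000624). The log2 fold changes were 1.92 ± 0.29 SE at an adjusted p of 0.00124 in OPCs and 2.01 ± 0.32 SE at an adjusted p of 0.00421 in myeloid cells. PLXNB1 passed in all 4 types under each of the 16 alternatives. Median UMIs per nucleus were 6118, 7071.5 and 4741.5 in the saline animals and 6235.5, 7791 and 5158 in the ASO animals. The OTV animals were at 6108, 5269 and 2579, and the part of depth in the plexin results was not tested.

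PLXNB2, also a class B receptor, was called in myeloid cells, where it is highest, and not in astrocytes, the next type. In myeloid cells it was 52.3, 62.3 and 54.4 CPM in the saline animals, 60.0, 63.9 and 59.5 CPM in the ASO animals and 140.5, 139 and 184 CPM in the OTV animals, with every OTV animal above every other animal and a log2 fold change of 1.39 ± 0.15 SE at an adjusted p of 0.000571. It was called at low levels in oligodendrocytes (1.28, adjusted p = 0.0125) and OPCs (0.92, adjusted p = 0.0466). Of these, the oligodendrocyte call was lost without Saline 1 or Saline 2 (adjusted p = 0.0626 and 0.0646), and the OPC call without any 1 animal (adjusted p = 0.0539 to 0.168).

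The class A plexins PLXNA1 and PLXNA3, which signal for neuropilin-bound and transmembrane semaphorins, were also higher. PLXNA1 in OPCs was 5.33, 5.86 and 6.32 CPM in the saline animals, 6.32, 7.24 and 6.33 CPM in the ASO animals and 16.8, 22.7 and 29.9 CPM in the OTV animals. The OTV animals did not overlap with either other group, and the log2 fold change was 2.01 ± 0.24 SE at an adjusted p of 0.000285. PLXNA1 was called in oligodendrocytes (1.83 ± 0.24 SE at an adjusted p of 0.00137) and astrocytes (1.56 ± 0.43 SE at an adjusted p of 0.0355) as well, the last call being lost without Saline 1, Saline 2, ASO 2, OTV 1 or OTV 3 (adjusted p = 0.051 to 0.126). PLXNA3 was called in all 4 glial types, with log2 fold changes of 1.32, 0.93, 1.59 and 1.61 in oligodendrocytes, OPCs, myeloid cells and astrocytes (adjusted p = 0.0186, 0.0188, 0.0167 and 0.00636). Its astrocyte levels were 7.42, 7.62 and 8.79 CPM in the saline animals, 8.47, 11.5 and 7.39 CPM in the ASO animals and 16.4, 25.7 and 28.9 CPM in the OTV animals, without overlap. The oligodendrocyte call was lost without Saline 2 or OTV 3 (adjusted p = 0.0522 and 0.0633), the OPC call without Saline 1, Saline 2 or OTV 2 (adjusted p = 0.0599 to 0.0858) and the myeloid call without Saline 1, Saline 2 or OTV 3 (adjusted p = 0.058 to 0.0701).

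Among ligands, SEMA3B and SEMA4C were higher. SEMA3B, a secreted semaphorin of neuropilin receptors, was called in oligodendrocytes (1.66 ± 0.33 SE at an adjusted p of 0.0082), OPCs (1.56 ± 0.32 SE at an adjusted p of 0.00571) and myeloid cells (1.95 ± 0.57 SE at an adjusted p of 0.0494), types in which it is scarce. In OPCs it was 2.82, 2.39 and 4.67 CPM in the saline animals, 4.46, 3.53 and 4.87 CPM in the ASO animals and 8.24, 8.44 and 10.7 CPM in the OTV animals, without overlap. In astrocytes, its main type, the OTV animals were at 35.4, 189.9 and 62.1 CPM and overlapped with the saline animals (41.4, 47.0 and 41.2 CPM). The myeloid call was lost without any 1 animal (adjusted p = 0.0607 to 0.174) and rested on 25 UMIs in the OTV and 10 in the saline animals. SEMA4C in oligodendrocytes, a ligand of class B plexins, was 2.39, 2.59 and 3.13 CPM in the saline animals, 4.39, 5.04 and 4.94 CPM in the ASO animals and 5.93, 7.44 and 9.41 CPM in the OTV animals (log2 fold change 1.56 ± 0.23 SE at an adjusted p of 0.00202). The SEMA4C call was lost when the 3 animals with telencephalic markers were omitted together (adjusted p = 0.061).

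**Figure D4:**
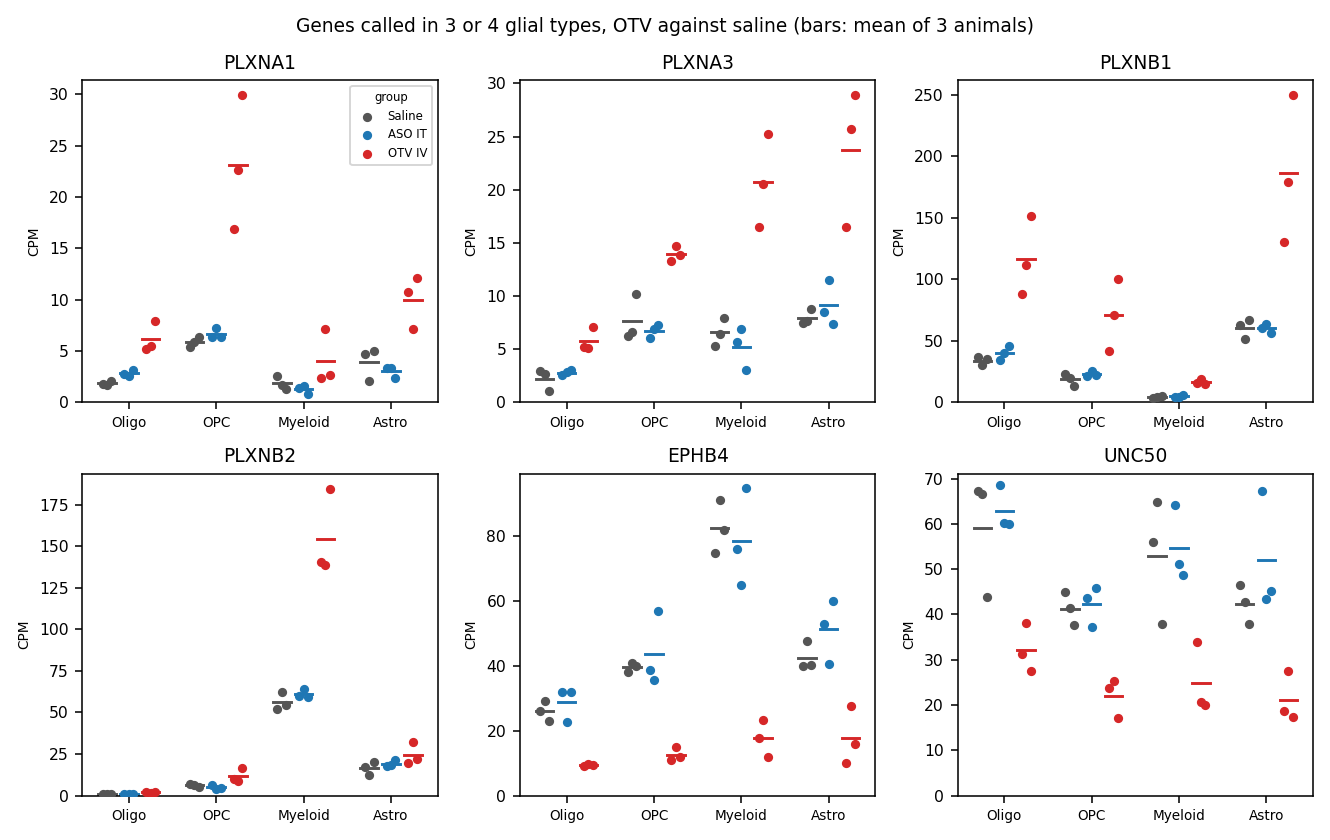
CPM of 6 genes in the 4 glial types, 1 point per animal (saline grey, ASO blue, OTV red), with the mean of each 3 as a bar. The red points lie above the others for PLXNB1 in every type and for PLXNB2 in myeloid cells (139 to 184 CPM), and below the others for EPHB4 and UNC50 in every type.

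EPHB4 fell in all 4 glial types. In myeloid cells it was 74.7, 91.0 and 81.7 CPM in the saline animals, 76.0, 64.7 and 94.8 CPM in the ASO animals and 17.8, 23.3 and 11.9 CPM in the OTV animals. The OTV animals were the lowest 3 without overlap, and the log2 fold change was -2.24 ± 0.22 SE at an adjusted p of 0.000429. In oligodendrocytes it was 25.9, 29.3 and 22.9 CPM in the saline animals, 31.7, 22.8 and 31.8 CPM in the ASO animals and 8.97, 9.82 and 9.46 CPM in the OTV animals (log2 fold change -1.43 ± 0.16 SE at an adjusted p of 0.00064). It fell by 1.62 on the log2 scale in OPCs and by 1.31 in astrocytes (adjusted p = 0.000462 and 0.0158), the astrocyte call being lost without Saline 2 or OTV 3 (adjusted p = 0.0528 and 0.0736). EPHB4 is best known from endothelial and mural cells. In myeloid cells their markers summed to 713, 475 and 571 CPM in the saline animals and 766, 894 and 887 CPM in the ASO animals. The OTV animals were at 189.5, 744 and 718 CPM, and the sums in oligodendrocytes were 18.5 to 33.2 CPM. The myeloid sum was mostly VWF, at 490 of 538 CPM in cluster 7 and 672 of 720 CPM in cluster 9. The leading marker of cluster 15 was RGS5, at 1025 of 1922 CPM. Of the 4 markers tested in myeloid cells, 1 was called higher in the OTV than in the saline animals. EPHB4 itself was 61.6 CPM in cluster 15 and 63.5 and 65.6 CPM in myeloid clusters 7 and 9. The part of the endothelial and mural markers in the EPHB4 result was not tested. UNC50 also fell in the 4 glial types, by 0.84 in oligodendrocytes and in OPCs, 1.09 in myeloid cells and 1.01 in astrocytes on the log2 scale (adjusted p = 0.0128, 0.00507, 0.0237 and 0.0161). Its oligodendrocyte levels were 67.2, 66.6 and 43.8 CPM in the saline animals, 68.5, 60.1 and 59.9 CPM in the ASO animals and 31.3, 38.0 and 27.4 CPM in the OTV animals, without overlap. The UNC50 calls in myeloid cells and astrocytes were lost without Saline 1, Saline 2, OTV 2 or OTV 3 (adjusted p = 0.0737 to 0.094) and without Saline 1, OTV 1 or OTV 3 (adjusted p = 0.0512 to 0.079).

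Of the netrin genes, UNC5C, UNC5A, NTNG1 and NTNG2 were higher. UNC5C in myeloid cells was 36.4, 39.3 and 84.3 CPM in the saline animals, 12.8, 19.0 and 19.2 CPM in the ASO animals and 204, 209 and 186 CPM in the OTV animals, with the 3 OTV animals above the rest and a log2 fold change of 1.89 ± 0.30 SE at an adjusted p of 0.00542. In astrocytes it was 26.1, 23.3 and 37.9 CPM in the saline animals, 7.9, 20.3 and 28.3 CPM in the ASO animals and 101, 119 and 187 CPM in the OTV animals (2.28 ± 0.45 SE at an adjusted p of 0.0119), a call lost without Saline 1 (adjusted p = 0.0526). In oligodendrocytes, where UNC5C is highest, the log2 fold change was -0.13 ± 0.24 SE at an adjusted p of 0.752, and the groups overlapped. The 4 oligodendrocyte markers summed to 676, 808 and 606 CPM in the saline animals, 861, 1418 and 1080.2 CPM in the ASO animals and 1446, 809.8 and 1225 CPM in the OTV animals in myeloid cells and to 359, 372 and 291 CPM in the saline animals, 411, 666 and 608 CPM in the ASO animals and 638, 367 and 621 CPM in the OTV animals in astrocytes, and 1 of the 4 in myeloid cells and 2 of the 4 in astrocytes were called higher against saline. Their part in the result was not tested. Some of the types' own markers were called too. In myeloid cells the 4 myeloid markers summed to 3285, 3267 and 3169 CPM in the saline animals, 3399, 3764 and 3039 CPM in the ASO animals and 2977, 2984 and 2199 CPM in the OTV animals, with 1 of 4 called lower against saline. In astrocytes the 5 astrocyte markers summed to 11988, 7266 and 18085 CPM in the saline animals, 6366, 8006 and 16943 CPM in the ASO animals and 7329, 6538 and 6877 CPM in the OTV animals, with 2 of 5 called lower. The part of these markers in the myeloid and astrocyte calls was not tested. DCC in myeloid cells was 78.6, 80.9 and 462 CPM in the saline animals, 67.8, 93.0 and 117 CPM in the ASO animals and 659, 752 and 540.1 CPM in the OTV animals, with a log2 fold change of 1.62 ± 0.68 SE at an adjusted p of 0.168. Saline 3 lay near the OTV animals, but the 3 OTV animals were the highest. NTNG1 in myeloid cells was 2.52, 7.86 and 5.31 CPM in the saline animals, 1.42, 1.85 and 3.84 CPM in the ASO animals and 25.9, 43.0 and 19.9 CPM in the OTV animals, also highest in the 3 OTV animals (log2 fold change 2.45 ± 0.46 SE at an adjusted p of 0.00865). The OPC markers, from the type in which NTNG1 is highest, summed to 21.3, 28.6 and 55.8 CPM in the saline animals, 24.9, 29.6 and 37.6 CPM in the ASO animals and 69.7, 51.9 and 47.8 CPM in the OTV animals in myeloid cells. None of the 4 tested was called, and their part in the result was not tested. Netrin-G2, NTNG2, was 22.5, 24.9 and 18.1 CPM in the saline animals, 36.2, 33.4 and 27.9 CPM in the ASO animals and 42.6, 56.8 and 46.5 CPM in the OTV animals in OPCs, and the OTV animals were the highest 3 (log2 fold change 1.18 ± 0.17 SE at an adjusted p of 0.000832).

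The remaining glial calls were scattered. SEMA6A, a ligand of PLXNA2 and PLXNA4, was 269, 439 and 537 CPM in the saline animals, 159, 89.3 and 201 CPM in the ASO animals and 144, 126 and 91.6 CPM in the OTV animals in myeloid cells. The OTV animals lay below the saline animals without overlap and within the range of the ASO animals, and the log2 fold change against saline was -1.81 ± 0.34 SE at an adjusted p of 0.0126. The sum of the astrocyte markers in the same nuclei, given above, was mostly SLC1A3. This sum was also lower in every OTV and ASO animal than in the saline animals. SEMA6A itself was 94.0 and 96.4 CPM in astrocyte clusters 6 and 12, and 231 and 228 CPM in myeloid clusters 7 and 9. The part of the astrocyte marker sum in the result was not tested. The call was lost without OTV 2 or OTV 3 (adjusted p = 0.0507 and 0.0546). SLIT2 in OPCs was 114, 96.9 and 151 CPM in the saline animals, 124, 106 and 129 CPM in the ASO animals and 88.6, 60.8 and 41.1 CPM in the OTV animals, without overlap between the OTV and saline animals, a log2 fold change of -0.84 ± 0.26 SE at an adjusted p of 0.0426, lost without any 1 animal other than Saline 2 and OTV 1 (adjusted p = 0.0531 to 0.114). The 5 neuron markers in the same OPC nuclei summed to 1202, 1019 and 1291 CPM in the saline animals. They were at 1089, 1288 and 1124 CPM in the ASO animals and 900, 902 and 761 CPM in the OTV animals. Of the 5, 1 was called lower in the OTV animals against saline and 1 against ASO. The sum was mostly SYT1, at 865 of 1124 CPM in OPC cluster 4. SYT1 also led in neuron cluster 11, at 1979 of 3031 CPM. The part of the neuron markers in the SLIT2 result was not tested. NRP1 in astrocytes (-0.78 ± 0.23 SE at an adjusted p of 0.0489) was lower and ended without any 1 animal other than Saline 2, adjusted p = 0.0602 to 0.129. Higher calls in 1 type were SEMA7A in oligodendrocytes (0.66 ± 0.16 SE at an adjusted p of 0.0185), SEMA6D in OPCs (0.91 ± 0.23 SE at an adjusted p of 0.0153), UNC5A in OPCs (0.95 ± 0.27 SE at an adjusted p of 0.0286), SEMA3C in myeloid cells (2.06 ± 0.52 SE at an adjusted p of 0.0303) and PLXND1 in oligodendrocytes (3.08 ± 0.79 SE at an adjusted p of 0.0269). In OPCs the 4 oligodendrocyte markers summed to 466, 548 and 297 CPM in the saline animals, 736, 996 and 823 CPM in the ASO animals and 822, 575 and 936 CPM in the OTV animals, and 3 of the 4 were called higher in the OTV than in the saline animals. Their part in the OPC results, which include SEMA6D and PLXNB1, was not tested. Each ended when single animals were left out: SEMA7A without Saline 1, Saline 2 or OTV 1, adjusted p = 0.0532 to 0.0721, SEMA6D without Saline 1, Saline 2 or OTV 3, adjusted p = 0.0567 to 0.066, UNC5A without Saline 1, Saline 2, Saline 3, OTV 1 or OTV 2, adjusted p = 0.0519 to 0.115, SEMA3C without Saline 1, Saline 2, OTV 1 or OTV 2, adjusted p = 0.0933 to 0.116, and PLXND1 without Saline 2, Saline 3, OTV 2 or OTV 3, adjusted p = 0.0544 to 0.0685.

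In neurons the 4 calls were all lower: SEMA3A, EPHA7, SLIT3 and SEMA5B, a secreted and a transmembrane semaphorin, an ephrin-A receptor and a SLIT. SEMA3A was 96.1, 67.0 and 163 CPM in the saline animals, 0, 161 and 145 CPM in the ASO animals and 2.77, 7.19 and 4.87 CPM in the OTV animals. The OTV animals lay below the saline animals, and the log2 fold change was -4.53 ± 0.98 SE at an adjusted p of 0.0319, from 16 UMIs in the OTV animals and 1884 in the saline animals. ASO 1 had no SEMA3A UMI in its 18 neurons, which allows up to 20.9 CPM, 3 counts of its total. EPHA7 was 99.7, 271 and 278 CPM in the saline animals, 62.6, 82.2 and 216 CPM in the ASO animals and 16.6, 41.8 and 8.11 CPM in the OTV animals (-3.31 ± 0.73 SE at an adjusted p of 0.0331). SLIT3 had a log2 fold change of -4.12 ± 0.93 SE at an adjusted p of 0.035 and SEMA5B of -4.43 ± 1.02 SE at an adjusted p of 0.0385, the latter from 8 UMIs in the OTV and 894 in the saline animals. The striatal markers of the same neurons, given above for every animal, summed to 335 to 531 CPM in the OTV animals, 383 to 7217 CPM in the saline animals and 285 to 4948 CPM in the ASO animals, and their part in these calls was not tested. With a term for the region score the 4 log2 fold changes were -3.56 ± 1.04 SE, -2.65 ± 0.73 SE, -2.18 ± 0.81 SE and -3.50 ± 1.16 SE (adjusted p = 0.137, 0.121, 0.21 and 0.174). All 4 stayed negative and none passed. With this term EPHA3, another ephrin-A receptor, was called lower (-4.25 ± 0.74 SE at an adjusted p of 0.0468, and 0.107 without the term). The calls were also lost without any 1 animal other than Saline 2, ASO 1 and ASO 3 (adjusted p = 0.0511 to 0.131) for SEMA3A, Saline 1, Saline 3, ASO 2, OTV 1 or OTV 3 (adjusted p = 0.0501 to 0.122) for EPHA7, any 1 animal other than Saline 2, ASO 1 and ASO 3 (adjusted p = 0.0522 to 0.141) for SLIT3 and any 1 animal other than Saline 2 and ASO 1 (adjusted p = 0.0542 to 0.149) for SEMA5B.

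The third comparison set the OTV animals against the ASO animals, the other animals that received an agent against MALAT1. It shares the OTV animals with the comparison above, so its calls are not independent of those. It gave 49 higher and 14 lower calls among the 241 member tests. These covered 27 and 8 of the 58 genes tested, with 2 called in both directions (ROBO1 and SLIT2). Of all features tested, 18.2% were called higher and 22.9% lower in at least 1 type. Of the 63 calls, 58 had no overlap, against 97.5% of the calls over all features. UNC50 gave 4 of the lower calls. Higher and lower calls numbered 15 and 3 in oligodendrocytes (all features 11.2% and 15.1%) and 11 and 4 in OPCs (12.7% and 14.4%). In myeloid cells they numbered 13 and 3 (9.42% and 11.1%), in astrocytes 9 and 2 (9.51% and 12.5%) and in neurons 1 and 2 (2.04% and 3.19%). The members' median log2 fold change in myeloid cells was 1.08, against -0.02 over all features. As shares of the members tested, higher calls were 25.9% in oligodendrocytes, 21.6% in OPCs, 31.0% in myeloid cells and 19.1% in astrocytes. The myeloid higher calls fell to 7 without ASO 1, to 8 without ASO 2 and to 7 with no filter on low counts, and rose to 20 with the term for the region score. The shares of all features under these settings are not given here. Higher calls fell to 7 in OPCs without ASO 1, and in astrocytes to 5 without ASO 2 and 4 without OTV 3. Lower calls fell to 2 in OPCs without ASO 1, ASO 3 or OTV 2 and to 1 in myeloid cells without ASO 1, OTV 2 or OTV 3. In neurons there were 3 higher and 4 lower calls without Saline 2. The neuron calls fell to 0 in both directions without Saline 1, ASO 2, ASO 3 or OTV 3 and with the term for the region score. Without OTV 1 there were 0 higher and 1 lower, and without Saline 3 or OTV 2 there were 0 lower. DESeq2's Wald test called 4 members lower in astrocytes and 5 in neurons. That is 8.51% and 11.9% of the members, against 13.1% and 5.36% of all features. In all types together, leaving out ASO 1 brought the higher calls to 31, and leaving out OTV 3 brought the lower calls to 9.

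The same 4 plexins, EPHB4 and UNC50 were called in this comparison. The log2 fold changes of PLXNB1 were 1.63, 1.70, 1.74 and 1.73 in oligodendrocytes, OPCs, myeloid cells and astrocytes, those of EPHB4 -1.52, -1.72, -2.13 and -1.53, and those of UNC50 -0.88, -0.82, -1.09 and -1.25. PLXNA1 was called in oligodendrocytes, OPCs and astrocytes (1.22, 1.87 and 1.88), PLXNA3 in the 4 glial types (1.12 to 1.91) and PLXNB2 in oligodendrocytes, OPCs and myeloid cells (1.35, 1.29 and 1.31). SEMA3B was called in oligodendrocytes, OPCs and myeloid cells (1.25, 1.16 and 1.69). Leaving out single animals ended some of these calls: PLXNA1 in astrocytes without OTV 3, adjusted p = 0.0535, PLXNA3 in oligodendrocytes without ASO 1, ASO 2, ASO 3 or OTV 3, adjusted p = 0.0559 to 0.0826, and UNC50 in myeloid cells without ASO 1, OTV 2 or OTV 3, adjusted p = 0.0551 to 0.0667. SEMA3B ended in oligodendrocytes without ASO 1 or OTV 3, adjusted p = 0.0591 and 0.0605, in OPCs without ASO 1, ASO 2 or OTV 3, adjusted p = 0.0524 to 0.0624, and in myeloid cells without any 1 animal, adjusted p = 0.0557 to 0.158.

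Netrin genes separated the OTV and ASO animals further. NTNG1 in oligodendrocytes was 5.15, 11.2 and 13.3 CPM in the saline animals, 3.28, 5.29 and 4.46 CPM in the ASO animals and 16.9, 21.9 and 19.9 CPM in the OTV animals. The OTV animals were the highest and 2 of 3 saline animals lay between the other groups, with a log2 fold change between OTV and ASO of 2.25 ± 0.34 SE at an adjusted p of 0.00161. In OPCs, its main type, the difference was smaller (0.55 ± 0.14 SE at an adjusted p of 0.0118) and was lost without ASO 1 (adjusted p = 0.0505), and in myeloid cells it was 3.64 ± 0.50 SE at an adjusted p of 0.00123. NTN1 in oligodendrocytes was 7.09, 6.42 and 7.71 CPM in the saline animals, 12.2, 8.38 and 14.9 CPM in the ASO animals and 4.18, 5.12 and 5.7 CPM in the OTV animals, and the OTV animals were the lowest (-1.16 ± 0.23 SE at an adjusted p of 0.00579). UNC5C differed by 3.53 ± 0.33 SE at an adjusted p of 0.000264 in myeloid cells, by 2.98 ± 0.47 SE at an adjusted p of 0.00349 in astrocytes and by 1.74 ± 0.37 SE at an adjusted p of 0.0335 in neurons, the last lost without Saline 1, ASO 2, ASO 3, OTV 1 or OTV 3 (adjusted p = 0.0636 to 0.132). Its myeloid levels, given above, were lowest in the ASO animals and highest in the OTV animals. DCC in myeloid cells was higher too (2.80 ± 0.71 SE at an adjusted p of 0.0303), a call that ended without any 1 animal other than Saline 1, Saline 2 and Saline 3, adjusted p = 0.0593 to 0.111. Between OTV and ASO animals 1 of the 4 oligodendrocyte markers in myeloid cells and 1 in astrocytes were called higher, and their part in these results was not tested.

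SEMA3E, SEMA3C and SEMA4F were the other semaphorins with the smallest adjusted p. SEMA3E in astrocytes was 9.76, 19.4 and 7.14 CPM in the saline animals, 6.32, 1.65 and 4.23 CPM in the ASO animals and 106, 50.6 and 185 CPM in the OTV animals, and the 3 OTV animals stood above the 6 others (log2 fold change against ASO 4.79 ± 0.63 SE at an adjusted p of 0.00192). In myeloid cells SEMA3E differed by 2.67 ± 0.63 SE at an adjusted p of 0.02, lost without ASO 1, ASO 2 or ASO 3 (adjusted p = 0.0549 to 0.0733). SEMA3C in myeloid cells was 2.52, 2.25 and 6.64 CPM in the saline animals, 2.49, 1.06 and 1.53 CPM in the ASO animals and 17.04, 19.7 and 6.64 CPM in the OTV animals (3.13 ± 0.56 SE at an adjusted p of 0.00439). SEMA4F in oligodendrocytes was 2.67, 4.42 and 3.34 CPM in the saline animals, 0.776, 1.52 and 0.614 CPM in the ASO animals and 3.59, 3.72 and 5.75 CPM in the OTV animals, with the ASO animals below both other groups (2.21 ± 0.39 SE at an adjusted p of 0.0038). It was also called in OPCs (1.56 ± 0.44 SE at an adjusted p of 0.0234), where leaving out ASO 1, ASO 3, OTV 1 or OTV 3 (adjusted p = 0.0642 to 0.0828) ended the call.

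Of the SLIT, ROBO and ephrin genes, ROBO1 was called higher in oligodendrocytes (0.86 ± 0.20 SE at an adjusted p of 0.0128) and myeloid cells (2.63 ± 0.76 SE at an adjusted p of 0.0449) and lower in OPCs (-0.49 ± 0.16 SE at an adjusted p of 0.0386). In OPCs the groups overlapped: the levels were 1199, 1201 and 1278 CPM in the saline animals, 1537, 1175 and 1746 CPM in the ASO animals and 1179, 901 and 883 CPM in the OTV animals. SLIT2 was lower in OPCs (-0.78 ± 0.26 SE at an adjusted p of 0.0475) and higher in astrocytes (1.89 ± 0.57 SE at an adjusted p of 0.0412), and EFNB2, an ephrin-B ligand of EPHB4, was lower in myeloid cells at 8.11, 9.27 and 11.3 CPM in the saline animals, 19.2, 14.8 and 9.21 CPM in the ASO animals and 7.86, 6.26 and 5.31 CPM in the OTV animals (-1.09 ± 0.34 SE at an adjusted p of 0.0461). The neuron marker sum in OPCs, given above, was also lower in every OTV animal than in every ASO animal. Its part in the OPC results of ROBO1 and SLIT2 was not tested. In neurons SEMA3A (-4.39 ± 0.99 SE at an adjusted p of 0.0419) and SEMA5B (-4.60 ± 1.04 SE at an adjusted p of 0.0423) were lower, and ASO 1, with 18 neurons, overlapped with the OTV animals for SEMA3A. All of these calls apart from ROBO1 in oligodendrocytes ended when single animals were left out: any 1 animal other than Saline 2 and Saline 3 (adjusted p = 0.0563 to 0.144) for ROBO1 in myeloid cells, ASO 1, ASO 3, OTV 2 or OTV 3 (adjusted p = 0.0896 to 0.122) for ROBO1 in OPCs, any 1 animal other than Saline 2, Saline 3 and OTV 1 (adjusted p = 0.0602 to 0.12) for SLIT2 in OPCs and ASO 1, ASO 2, ASO 3, OTV 2 or OTV 3 (adjusted p = 0.0835 to 0.111) in astrocytes. The same held of any 1 animal other than Saline 3 and ASO 3 (adjusted p = 0.0596 to 0.163) for EFNB2, any 1 animal other than Saline 2 and ASO 1 (adjusted p = 0.0598 to 0.156) for SEMA3A and any 1 animal other than Saline 2 and ASO 1 (adjusted p = 0.0688 to 0.157) for SEMA5B.

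The other calls of this comparison were all higher. In oligodendrocytes they were SEMA3D (2.80), UNC5D (2.51), SEMA6B (1.93), SEMA4A (1.30), EPHA4 (0.78), SEMA4C (0.74) and SEMA5A (0.53). In OPCs they were EPHB2 (1.43), EPHB3 (1.06), UNC5A (1.04) and NTNG2 (0.67). Myeloid cells added EPHA4 (3.80), SEMA6D (3.14) and UNC5D (2.86), and astrocytes SEMA4G (1.01), SEMA4A (0.90) and SEMA4B (0.48). Of these calls, SEMA3D and SEMA4A in oligodendrocytes, EPHB2 in OPCs and SEMA6D in myeloid cells passed with each animal left out in turn. The others were lost without at least 1 animal. UNC5D was lost without ASO 1, ASO 2, OTV 2 or OTV 3, adjusted p = 0.0506 to 0.0743 in oligodendrocytes and without ASO 1, ASO 2, OTV 2 or OTV 3, adjusted p = 0.0811 to 0.122 in myeloid cells. SEMA6B was lost without ASO 1, ASO 2 or OTV 2, adjusted p = 0.0529 to 0.0839. EPHA4 was lost without any 1 animal other than Saline 1, Saline 3 and OTV 3, adjusted p = 0.0548 to 0.119 in oligodendrocytes and without ASO 1 or ASO 2, adjusted p = 0.0703 and 0.0746 in myeloid cells. SEMA4C was lost without ASO 1, ASO 2, ASO 3, OTV 2 or OTV 3, adjusted p = 0.0574 to 0.108, and SEMA5A without ASO 3, OTV 1 or OTV 3, adjusted p = 0.0589 to 0.0735. In OPCs EPHB3 was lost without ASO 1 or OTV 2, adjusted p = 0.0614 and 0.0618, UNC5A without ASO 3 or OTV 1, adjusted p = 0.0511 and 0.074, and NTNG2 without ASO 3 or OTV 2, adjusted p = 0.0516 and 0.0654. In astrocytes SEMA4G was lost without ASO 2, ASO 3, OTV 1, OTV 2 or OTV 3, adjusted p = 0.053 to 0.0881, SEMA4A without Saline 1, ASO 1, ASO 2, OTV 1 or OTV 3, adjusted p = 0.0647 to 0.136, and SEMA4B without any 1 animal other than Saline 1, Saline 2 and Saline 3, adjusted p = 0.0614 to 0.118. SEMA6D in myeloid cells, a gene of oligodendrocytes, was 3.36, 3.93 and 19.9 CPM in the saline animals, 2.84, 2.64 and 2.3 CPM in the ASO animals and 23.6, 16.1 and 31.9 CPM in the OTV animals, and only Saline 3 reached the OTV range outside the OTV group. EPHB2 in OPCs was 38.2, 49.0 and 26.9 CPM in the saline animals, 39.5, 30.6 and 15.4 CPM in the ASO animals and 67.0, 88.8 and 61.4 CPM in the OTV animals.

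Whether the OTV change differs between the 4 glial types was tested in 1 model with the animal as a block. It differed for 3 of 55 members tested, SEMA6A (adjusted p = 0.00132), SEMA3E (adjusted p = 0.00363) and UNC5C (adjusted p = 0.0136), against 3.53% of all features. Without Saline 3 the count was 8 members, and without the 3 animals with telencephalic markers 7. The shares of all features in those fits are not given here. The UNC5C call was lost without Saline 1, Saline 2, OTV 2 or OTV 3 (adjusted p = 0.0527 to 0.135), and the other 2 calls passed with each animal left out in turn. SEMA6A was lower in myeloid cells (-1.81) with log2 fold changes of 0.22 in oligodendrocytes, 0.12 in OPCs and -0.43 in astrocytes. SEMA3E was higher in astrocytes (3.23, adjusted p = 0.00839) and had 0.29, 0.53 and 1.44 in oligodendrocytes, OPCs and myeloid cells. UNC5C had 2.28 in astrocytes and 1.89 in myeloid cells, and 0.44 and -0.13 in OPCs and oligodendrocytes. For PLXNB1, PLXNA1 and EPHB4 the same test gave adjusted p of 0.719, 0.555 and 0.0791, which does not show that their changes were equal.

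**Figure D5:**
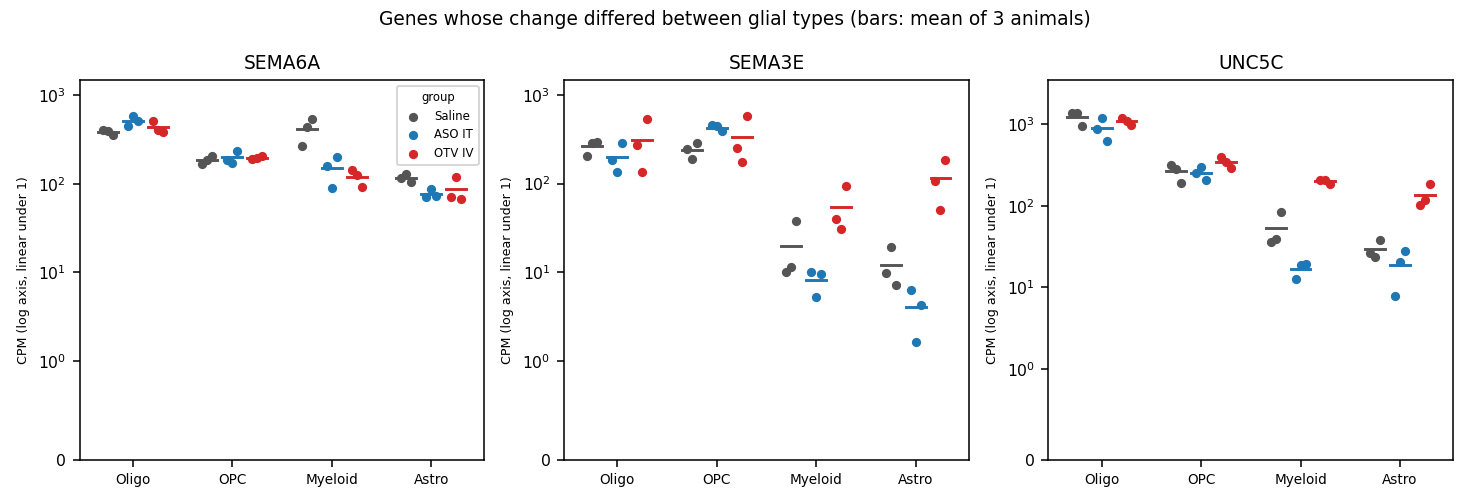
CPM of SEMA6A, SEMA3E and UNC5C in the 4 glial types, 1 point per animal (saline grey, ASO blue, OTV red) with the mean of each 3 as a bar, on a log axis that is linear under 1 CPM. In myeloid cells SEMA6A is lower in the OTV than in the saline animals without overlap, SEMA3E is higher in astrocytes (50.6 to 185 CPM), and UNC5C is higher in myeloid cells and astrocytes.

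Further genes of guidance pathways were called too. Of 64 co-receptors, other cues and intracellular effectors of guidance, 62 were tested in at least 1 type. Against saline, 28 of their 272 tests in the OTV animals were called higher and 19 lower, against 6.67% and 9.46% of all tests in the 5 types. In the ASO animals 0 were called by edgeR, and 21 of the 272 had an unadjusted p under 0.05. Against the ASO animals, 44 were higher and 19 lower (all tests 9.65% and 12.1%). Called in at least 3 types in the OTV animals against saline were RASA1, a Ras GTPase-activating protein that binds EPHB receptors, lower in all 5 types (in oligodendrocytes -1.03 ± 0.11 SE at an adjusted p of 0.000586), LIMK2, a kinase acting on cofilin, lower in the 4 glial types (in astrocytes -0.77 ± 0.15 SE at an adjusted p of 0.0105, and 0.166 without the 3 animals with telencephalic markers), and CNTN2, a cell adhesion molecule of axons and oligodendrocytes, higher in the 4 glial types (in astrocytes 1.88 ± 0.32 SE at an adjusted p of 0.00546). LINGO1 and VAV2 were called higher in 3 types each (LINGO1 in oligodendrocytes 2.22 ± 0.33 SE at an adjusted p of 0.00213, and VAV2 in OPCs 1.94 ± 0.39 SE at an adjusted p of 0.00861).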

How the data were processed

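RNA was counted in single nuclei of 9 thalamus samples, and each sample comes from a separate animal per the labels. The authors deposited raw UMI counts per feature and nucleus, with the animal, cluster and cell type of each of 79994 nuclei. The deposited doublet score is a fraction between 0 and 1, all deposited nuclei were called singlets, and no further nuclei were removed. Cell Ranger 6.1.2, Seurat 4 and the build GRCh38.p13 are named per the submitters' processing notes without their roles, whereas the features carry macaque identifiers. How that build was used is not given in the labels. No genome was used, so positions and sequences are not analysed here.

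Counts were summed per animal and cell type, and levels are CPM of these sums. Features passing filterByExpr were fitted over all 9 animals with edgeR 4.0.16 (TMM factors, robust quasi-likelihood test) in R 4.3.3 with limma 3.58.1, in each type with at least 15 nuclei per animal. The difference between the 4 glial types was an F test of type by group with animal as a block. The code was tested on simulated data in which 200 genes were changed. The members and gene lists were chosen with earlier results of these data known. Named for their level were members with at least 20000 UMIs, or 4 times the next type at a mean of at least 20 CPM, and a few others were named after their values were seen. Named for a difference were members called in at least 3 types and up to 8 per direction by adjusted p, and for the ASO comparison the 4 with the smallest adjusted p. Other calls were added as values. Alternatives were DESeq2 1.42.0 (size factors, or its Wald test), no filter, the 6 compared animals, the largest cluster of a type, a term for the region score, and each animal left out. The region score is the mean log2 CPM of 3 telencephalic markers minus that of 6 diencephalic ones in each animal's astrocytes, and 1 further marker of the planned list is not reported here. Omitting Saline 1, Saline 3 and ASO 3 together, and all alternatives of the test between glial types, were chosen after seeing the data. With 3 animals per group, p-values measure the spread between these animals.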

Additional observations from a re-analysis of the deposited data

Results flagged for a closer look

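The change of 3 genes in OTV against saline animals differed between oligodendrocytes, OPCs, myeloid cells and astrocytes by a test of the difference itself, edgeR's quasi-likelihood test of cell type by group. These were 3 of 55 members tested, against 3.53% of all features. SEMA6A, a transmembrane semaphorin, had an adjusted p of 0.00132, with a log2 fold change of -1.81 in myeloid cells. Its myeloid levels in the OTV animals lay within the range of the ASO animals. SEMA3E, a secreted semaphorin that binds PLXND1, had an adjusted p of 0.00363, with a log2 fold change of 3.23 in astrocytes. UNC5C, a netrin receptor, had an adjusted p of 0.0136, with log2 fold changes of 1.89 in myeloid cells and 2.28 in astrocytes. Over the 12 alternatives the adjusted p ran from 0.000443 to 0.0294 for SEMA6A, from 0.000496 to 0.0431 for SEMA3E and from 0.00115 to 0.135 for UNC5C. All 3 genes are carried at high levels by oligodendrocytes, whose marker sums in myeloid cells and astrocytes are given above. In myeloid cells those sums were 606 to 808 CPM in the saline animals and 809.8 to 1446 CPM in the OTV animals. SEMA6A went the other way there. The part of these markers in the 3 differences was not tested.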

How the results depend on the processing

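No call reversed under any alternative. Of the 106 member calls against saline or ASO, 44 passed under all alternatives and 62 were ended by at least 1. Among the former were PLXNB1 in the 4 glial types, EPHB4 in oligodendrocytes, OPCs and myeloid cells, PLXNA1 in oligodendrocytes and OPCs, and UNC5C and PLXNB2 in myeloid cells. Between ASO and saline animals, DESeq2's Wald test called 3 members higher and 7 lower, the fit with no filter called 2 lower, the term for the region score called 1 lower (UNC5C in myeloid cells), and omitting Saline 1, Saline 3 and ASO 3 called 1 lower. Omitting these 3 animals, which leaves 1 saline animal assumed to vary like the others, gave 6 lower calls between OTV and saline and 7 genes whose change differed between glial types. The term for the region score gave 13 higher calls in myeloid cells and 8 in astrocytes between OTV and saline, against 7 and 5 without it. Apart from DESeq2's Wald test, the shares of all features called under the alternatives are not given here. The counts therefore do not show whether the members shifted apart from other features. Leaving out single animals gave 0 higher and 0 to 2 lower calls between ASO and saline, 18 to 34 higher and 5 to 13 lower calls between OTV and saline, and 31 to 54 higher and 9 to 15 lower calls between OTV and ASO. The lowest counts between OTV and saline came without Saline 1 (18 higher) and without OTV 3 (5 lower). For the difference between glial types it gave 2 to 8 genes. The cause of these shifts was not tested. Neurons had the fewest nuclei of the types tested, with 17 to 23 in 3 animals. No paired analysis was possible because replicate numbers only name the animals.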
